A study of Mus musculus with 12 samples.

Results

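A set of 9 protein-coding genes was examined that had 0 to 67 counts per library in mouse marrow cultures titled R0D3 and at 14.1 to 601 CPM in cultures titled R40D3: Calcr, Msln, Slc9b2, Rasgrp1, Nyap2, Kbtbd11, Rufy4, St8sia6 and Cyp2s1. They are 9 of the 55401 gene identifiers of the culture libraries, taken by name. The names had been selected on the measured R40D3 against R0D3 levels, which stood far apart. That difference is therefore given below as a description with no test. The series deleted Impdh2, an enzyme of guanine nucleotide synthesis, in mice and held 12 RNA-seq libraries in 6 groups of 2.

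The 4 culture groups were R40D3 and R0D3 cultures of marrow cells from wild-type mice (Wt in the labels, WT here) and from LysM-cKO mice, in which Impdh2 was deleted in the myeloid lineage, including osteoclast precursors. For 3 days marrow cells of both genotypes received medium with L929 supernatant, whose M-CSF was given as equivalent to 20 ng/ml. They were then reseeded and, per the protocol, stimulated with RANKL at 40 ng/ml. The labels do not spell out R40D3 and R0D3, and all 8 culture samples are labelled osteoclast, so the titles serve here as names. The 2 forelimb groups were limbs of WT and Prx-cKO embryos at E12.5, the latter with Impdh2 deleted in limb mesenchymal progenitors. The labels do not give the age or sex of the marrow donors, nor whether replicates came from separate mice, so p-values measure only the spread between these samples. The names of the knockouts point to LysM-driven and Prx-driven Cre lines, and deletion is limited to cells with a history of that promoter.

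Osteoclasts are the bone-resorbing cells that form when macrophage-like precursors, kept alive by M-CSF, receive the cytokine RANKL. RANKL signalling switches on the transcription factor NFATc1, which acts together with AP-1, PU.1 and MITF. The precursors fuse, and the fused cell pumps acid and proteases onto bone. Several of the 9 genes are better known elsewhere: Msln from mesothelium, Rasgrp1 from lymphocytes and Nyap2 from neurons. Calcr is the receptor through which the hormone calcitonin acts on osteoclasts.

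Levels are in CPM, counts of a gene brought to a common library size after TMM scaling. The culture libraries held 16009146 to 19221865 counts and the forelimb libraries 28892215 to 69466572. Impdh2 stood at 25.7 and 27.7 CPM for R40D3 WT against 7.72 and 8.38 CPM for R40D3 LysM-cKO, a log2 change of −1.73 (SE 0.15, edgeR adjusted p = 0.0386). In R0D3 cultures it stood at 22.3 and 28.2 CPM for WT against 7.36 and 7.03 CPM for LysM-cKO (log2 change −1.81, SE 0.16, edgeR adjusted p = 0.0324). In forelimbs its log2 change of −0.53 (SE 0.16, edgeR adjusted p = 0.443) did not pass. The labelled cell type was checked with 16 osteoclast genes (Acp5, Ctsk and others). Their summed level was 1244 to 1425 CPM in the 4 R0D3 libraries, where Ocstamp, Oscar and Car2 had at most 4 counts each. At R40D3 it was 14740 and 26992 CPM in LysM-cKO replicates 1 and 2 and 28432 and 41463 CPM in WT replicates 1 and 2, so several defining markers were at or near 0 in part of the samples labelled osteoclast. A list of 10 macrophage genes summed to 9228 to 12008 CPM in all 8. Stromal fibroblast genes (8 listed) stood apart in LysM-cKO replicate 2, at 532 CPM in R0D3 and 439 CPM in R40D3, against 1288 to 1674 CPM in the other culture libraries.

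Genome positions are those of GRCm38 with GENCODE M21. Calcr (ENSMUSG00000023964) lies on the minus strand at chr6:3685680-3764714, Msln (ENSMUSG00000063011) on the minus strand at chr17:25748613-25754378 and Slc9b2 (ENSMUSG00000037994) on the plus strand at chr3:135307700-135345387. Rasgrp1 (ENSMUSG00000027347) lies on the minus strand at chr2:117279993-117343001, and Nyap2 (ENSMUSG00000054976) on the plus strand at chr1:81076950-81341764. Rufy4 (ENSMUSG00000061815) shares that chromosome and strand, at chr1:74125541-74148223. Kbtbd11 (ENSMUSG00000055675) lies on the plus strand at chr8:15011025-15033333, St8sia6 (ENSMUSG00000003418) on the minus strand at chr2:13651021-13794064 and Cyp2s1 (ENSMUSG00000040703) on the minus strand at chr7:25802475-25816913. An opposite-strand gene shares 24.8% of the exonic bases of Kbtbd11 (Gm37844), 5.27% of those of Cyp2s1 (Gm26707) and 1.46% of those of St8sia6 (Gm37126). The use of strand in counting is not given in the sources used here, so reads in those stretches cannot be assigned to a strand.

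The 250 bases before the start site are shown because all 9 genes were low at R0D3 and high at R40D3. Motifs of the NFAT, AP-1, PU.1 and MITF factors can be read there. RefSeq windows (GRCm38.p6) were found for 7 of the 9 genes, with 2 start sites for Calcr, so 8 windows in all; Kbtbd11 and Msln were not matched. The motifs searched on both strands were TGANTCA (AP-1), GGAAA (NFAT core), GAGGAA (PU.1 core) and CACGTG (E-box of the MITF and TFE factors). The GGAAA and GAGGAA motifs can overlap. Sequence is printed 5′ to 3′ on the gene's strand for the 4 genes with a match outside annotated exons, motif matches in capitals (TTTCC is GGAAA on the other strand). The stretches are chr1:74125291-74125540 for Rufy4, chr1:81076700-81076949 for Nyap2, chr6:3764715-3764963 for Calcr and chr3:135307450-135307699 for Slc9b2.
Rufy4: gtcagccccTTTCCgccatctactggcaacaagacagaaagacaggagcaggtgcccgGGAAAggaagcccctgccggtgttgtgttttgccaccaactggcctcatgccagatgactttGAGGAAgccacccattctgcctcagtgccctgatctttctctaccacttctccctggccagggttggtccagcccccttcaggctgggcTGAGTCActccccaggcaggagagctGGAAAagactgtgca
Nyap2: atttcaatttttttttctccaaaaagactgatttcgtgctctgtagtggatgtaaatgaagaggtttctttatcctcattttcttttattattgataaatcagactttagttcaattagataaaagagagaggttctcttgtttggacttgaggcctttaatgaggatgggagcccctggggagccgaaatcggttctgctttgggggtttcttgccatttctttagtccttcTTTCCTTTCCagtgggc
Calcr: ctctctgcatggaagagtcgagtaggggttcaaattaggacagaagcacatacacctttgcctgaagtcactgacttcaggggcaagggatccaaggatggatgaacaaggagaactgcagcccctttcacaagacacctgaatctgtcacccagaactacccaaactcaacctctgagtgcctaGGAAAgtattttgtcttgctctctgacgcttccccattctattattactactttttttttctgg
Slc9b2: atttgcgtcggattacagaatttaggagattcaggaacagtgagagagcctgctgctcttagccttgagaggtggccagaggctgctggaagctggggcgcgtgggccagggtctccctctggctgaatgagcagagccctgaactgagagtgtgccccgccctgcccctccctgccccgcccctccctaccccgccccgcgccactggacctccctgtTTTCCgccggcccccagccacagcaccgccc

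Rufy4 held 5 matches, the most of the 7 genes: NFAT cores beginning 241, 192 and 15 bases before the start, a PU.1 core at 130 and the AP-1 sequence at 41. Nyap2 held a pair of NFAT cores side by side at 17 and 12 bases before the start. Calcr held 1 NFAT core at 65, and Slc9b2 held 1 at 31. Rasgrp1 held an NFAT core at 92 overlapping a PU.1 core at 91, and Cyp2s1 held 1 NFAT core at 203. The St8sia6 window and the window of the second Calcr start held none. The whole windows of Cyp2s1 and St8sia6 lie inside annotated exons, as do both Rasgrp1 matches. Over all 32851 RefSeq windows of this length, 55.6% held the NFAT core, 23.3% the PU.1 core, 6.75% the AP-1 sequence and 6.02% the E-box. Of the 8 windows of these genes 6, 2, 1 and 0 held them, matches inside exons included. These counts describe letters in short windows.

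**Figure D1:**
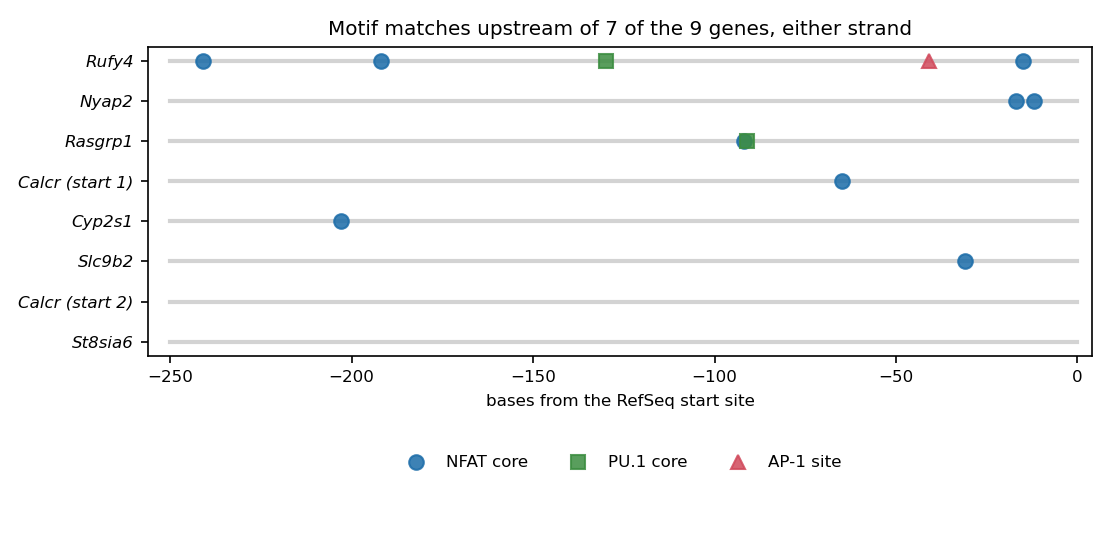
Positions of motif matches in the 250 bases before each start site of the 7 genes with a RefSeq window, 1 line per window, with distance from the start in bases on the horizontal axis and a marker for each motif. Rufy4 carries 5 matches, Nyap2 and Rasgrp1 2 each, and no window carries the E-box. The matches of Rasgrp1 and Cyp2s1 lie inside annotated exons.

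The surface and transport proteins were described first. Calcr had 0 counts in all 4 R0D3 libraries and stood at 89.4 and 122 CPM for R40D3 WT against 52.4 and 85.5 CPM for R40D3 LysM-cKO. R40D3 was above R0D3 at least 585-fold in WT and at least 389-fold in LysM-cKO, taking 3 counts per library as the floor. Both LysM-cKO libraries fell short of both WT libraries. Msln, a lipid-anchored surface glycoprotein, likewise had 0 counts in all 4 R0D3 libraries. At R40D3 it stood at 37.7 and 93.0 CPM for WT against 14.1 and 51.8 CPM for LysM-cKO, at least 362-fold and at least 186-fold above the floor. Its genotypes overlapped, since LysM-cKO replicate 2 lay above WT replicate 1. Slc9b2 encodes a sodium/proton exchanger and was the member with the most R0D3 counts, 67 and 39 in WT and 58 and 52 in LysM-cKO (2.43 to 3.90 CPM). It reached 426 and 601 CPM in R40D3 WT and 230.3 and 397 CPM in LysM-cKO. The ratio of summed counts, scaled to library size, was 159 in WT (exact 95% interval 131 to 194) and 94.6 in LysM-cKO (78.4 to 115). Both LysM-cKO libraries fell short of both WT libraries. These intervals, here and below, hold only the counting error of the summed counts. They leave out the spread between the 2 libraries of a group, which exceeded sampling noise, so the uncertainty of a fold is wider. No molecular identifiers are named in the labels, so reads may also be copies.

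Msln is best known from mesothelium, so 8 other mesothelial genes were read beside it. Upk3b, Upk1b, Lrrn4 and Bnc1 had 0 counts in all 8 culture libraries. The whole list summed to 2 to 16 counts per culture library (0.123 to 0.932 CPM), with 6 and 4 counts in the R40D3 WT libraries where Msln had 721 and 1523. In the forelimb, where Msln had 0 to 2 counts, the same list summed to 67.2 to 97.3 CPM.

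Signalling and adaptor proteins came next. Rasgrp1 activates Ras in response to diacylglycerol. It had 6 and 1 counts in R0D3 WT and 2 and 0 in R0D3 LysM-cKO. At R40D3 it stood at 64.5 and 80.7 CPM for WT against 33.8 and 58.2 CPM for LysM-cKO, ratios of 342 (166 to 851) and 764 (211 to 6312). The genotypes did not overlap at R40D3, and the R0D3 counts were too few to order them. Of 10 lymphocyte genes read beside it, Cd4 held nearly all counts, and the other genes of the list summed to 5 to 40 counts per culture library, with Cd3g at 0 in all 8. Cd4 stood at 453 and 157 CPM for R40D3 WT against 235 and 85.3 CPM for LysM-cKO. At R0D3 it stood at 111 and 31.1 CPM for WT against 52.4 and 10.4 CPM for LysM-cKO. Like Rasgrp1 it was higher at R40D3, and at R40D3 lower in LysM-cKO within each replicate number. For the R40D3 to R0D3 difference, its edgeR adjusted p was 0.168 in WT and 0.177 in LysM-cKO. With the replicate block these were 4.23e-05 and 4.98e-05. Its order by replicate number at R40D3, higher in replicate 1, was the opposite of that of Rasgrp1.

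Nyap2, an adaptor phosphorylated on tyrosine that binds phosphoinositide kinase, had 2 and 0 counts in R0D3 WT and 4 and 0 in LysM-cKO. It reached 52.1 and 67.8 CPM in R40D3 WT and 31.2 and 50.9 CPM in LysM-cKO, ratios of 987 (273 to 8154) and 342 (133 to 1256). LysM-cKO replicate 2 lay just under WT replicate 1. The 8 neuronal genes summed to 4.03 to 10.3 CPM in the cultures. Snap25 and Elavl4 were at 0 in all 8 libraries, and the list without Tubb3 and Syp came to 1 to 5 counts.

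Kbtbd11, a BTB and Kelch-repeat protein of the kind that brings substrates to Cullin ubiquitin ligases, had 6 to 8 counts in each R0D3 library. It stood at 259 and 349.5 CPM for R40D3 WT against 129 and 204 CPM for LysM-cKO. The ratios were 833 (477 to 1613) and 397 (236 to 726). Rufy4 has a RUN and a FYVE domain and acts in autophagy and lysosome positioning. It had 0 counts in both R0D3 WT libraries and 1 in each R0D3 LysM-cKO library, against 100.4 and 139 CPM in R40D3 WT and 53.5 and 88.2 CPM in R40D3 LysM-cKO. That was at least 664-fold in WT, and a ratio of 1178 (326 to 9737) in LysM-cKO, where the R0D3 counts are too few to order the genotypes by fold. Both LysM-cKO libraries fell short of both WT libraries for Kbtbd11 and for Rufy4.

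Of the enzymes, St8sia6 joins sialic acids to one another on glycoproteins and glycolipids. It had 3 and 2 counts in R0D3 WT and 2 and 3 in LysM-cKO, and stood at 78.9 and 102 CPM for R40D3 WT against 47.1 and 71.1 CPM for LysM-cKO. The ratios were 597 (256 to 1840) and 394 (169 to 1215), with no overlap of genotypes at R40D3. Cyp2s1, a cytochrome P450 inducible through the aryl hydrocarbon receptor, had 2 and 2 counts in R0D3 WT and 7 and 4 in LysM-cKO. At R40D3 it stood at 24.4 and 29.0 CPM for WT against 21.0 and 32.8 CPM for LysM-cKO. Here the LysM-cKO libraries lay on either side of the WT pair. The ratios were 220.4 (85.8 to 811) and 81.5 (45.3 to 164).

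**Figure D2:**
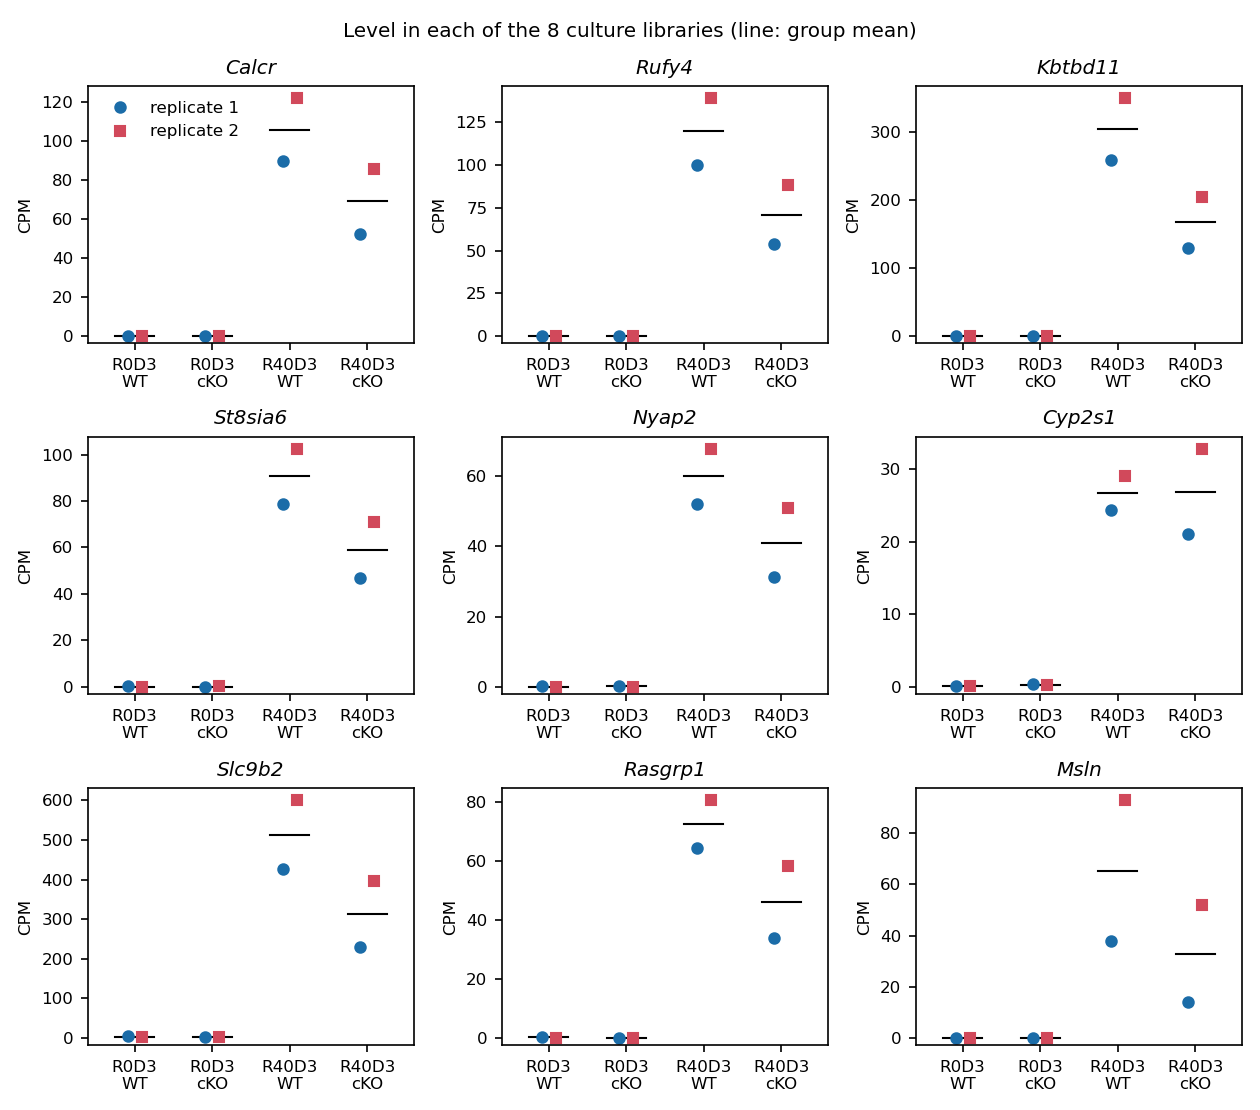
CPM of each of the 9 genes in the 8 culture libraries (points, by group and replicate number) each on its own linear axis, with a line at the group mean. The R40D3 points lie above the R0D3 points for each gene, which is how the genes were chosen. Within R40D3 both LysM-cKO points lie below both WT points for 7 of the 9, against 18.9% of all genes tested.

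Within each R40D3 group replicate 2 was above replicate 1 for all 9 genes, an order that was not counted over all genes tested. The summed osteoclast list had this order too, at 14740 and 26992 CPM in LysM-cKO and 28432 and 41463 CPM in WT. Without Msln the ratio of replicate 2 to replicate 1 was 1.19 to 1.41 in WT and 1.51 to 1.72 in LysM-cKO. Msln varied more, with ratios of 2.47 and 3.68. The order LysM-cKO replicate 1, LysM-cKO replicate 2, WT replicate 1, WT replicate 2 held for 7 of the 9 genes, the exceptions being Cyp2s1 and Msln. It held for 9 of the 16 osteoclast genes and for 8.13% of the 14030 genes tested.

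Levels were compared between genes per kilobase of exonic sequence, as CPM per kb. In R40D3 WT the order was Slc9b2 (93.4, range 77.4 to 109), Rufy4 (51.5), Kbtbd11 (42.6), Calcr (27.0), Msln (21.3), Rasgrp1 (13.0), St8sia6 (11.8), Cyp2s1 (5.41) and Nyap2 (4.79). Slc9b2 stood clear of the next gene in both libraries. The ranges of neighbours overlapped for Rufy4 (43.1 to 59.8) and Kbtbd11 (36.3 to 49.0), for Calcr (22.9 to 31.2) and Msln (12.3 to 30.4), for Rasgrp1 (11.5 to 14.4) and St8sia6 (10.3 to 13.4), and for Cyp2s1 (4.94 to 5.88) and Nyap2 (4.17 to 5.42). Rasgrp1 and St8sia6 also overlapped Msln. The means fell in the same order in R40D3 LysM-cKO, from 57.0 for Slc9b2 to 3.28 for Nyap2 in CPM per kb.

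**Figure D3:**
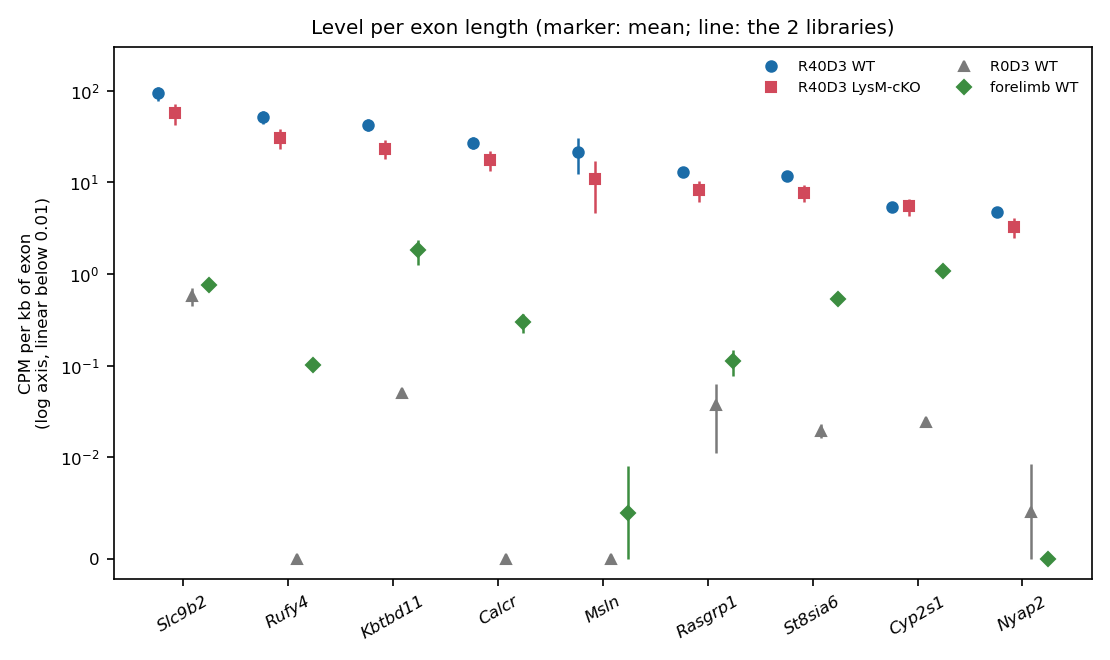
CPM per kilobase of exonic sequence for the 9 genes in R40D3 WT, R40D3 LysM-cKO, R0D3 WT and forelimb WT, on an axis that is logarithmic above 0.01 and linear below it; markers are means and lines join the 2 libraries. Slc9b2 is highest and Nyap2 lowest in both R40D3 groups, and the forelimb values, from a count table scaled separately, are shown for their level only.

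The genotype comparison at R40D3 asked whether these genes differ when Impdh2 is deleted in the myeloid lineage. Its R40D3 libraries are also those in which the genes were chosen as high. The choice rested on R40D3 against R0D3 levels, but was made with earlier results of these data known. Independence of the choice from genotype therefore cannot be shown, and the tests and shares below carry that limit. Kbtbd11 was at 304 ± 64.1 CPM for WT against 167 ± 53.3 CPM for LysM-cKO (SD, n = 2), and Rufy4 at 120 ± 27.6 and 70.9 ± 24.5. St8sia6 was at 90.7 ± 16.6 and 59.1 ± 17.0, Slc9b2 at 513 ± 124 and 314 ± 118, and Rasgrp1 at 72.6 ± 11.4 and 46.0 ± 17.2. Calcr was at 106 ± 23.0 and 68.9 ± 23.4, Nyap2 at 60.0 ± 11.1 and 41.1 ± 14.0, and Msln at 65.4 ± 39.1 and 32.9 ± 26.6. The means of Cyp2s1 lay closest, at 26.7 ± 3.28 and 26.9 ± 8.33. In bulk samples, fewer cells of a type and less RNA per cell cannot be told apart.

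None of the 9 genes passed the adjusted threshold of 0.05 in the edgeR quasi-likelihood test (0 of 9, where 0.0143% of the 14030 genes tested passed). The log2 change was −0.87 for Kbtbd11 (SE 0.22, edgeR adjusted p = 0.648) and −0.76 for Rufy4 (SE 0.23, with the same adjusted p). The values of Slc9b2, Rasgrp1, St8sia6, Calcr and Nyap2 were −0.71, −0.66, −0.62, −0.62 and −0.55, and that of Cyp2s1 was 0.01. Of the 9, 5 genes (Rufy4, Kbtbd11, St8sia6, Slc9b2 and Rasgrp1) had an unadjusted edgeR p under 0.05, all lower in LysM-cKO, where 7.47% of all genes reached that p and 3.47% did so with a lower level in LysM-cKO. Without R40D3 LysM-cKO replicate 1, or without R40D3 WT replicate 2, this count fell to 1, and without R40D3 LysM-cKO replicate 2 it was 8. DESeq2 called 0 of the 9 (background 0.164%) and had 6 at an unadjusted p under 0.05 (4.87% of all genes). The median log2 change of the 9 genes was −0.66, beside −0.008 over all genes tested.

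The 2 replicate numbers were taken to pair the cultures, because same-numbered libraries deviated together in these same data. The titles do not say what cultures of the same number share. On that reading, the comparison within a number was tighter. LysM-cKO was lower than WT within both numbers for 8 of the 9 genes, as it was for 34.3% of all genes tested. Both LysM-cKO libraries lay below both WT libraries for 7 of the 9, against 18.9% of all genes. In replicate number 1 the LysM-cKO level of those 8 genes was 37.3% to 59.8% of WT, and in number 2 it was 55.6% to 75.2%. Kbtbd11 was at 49.9% and 58.5% of WT, Rufy4 at 53.3% and 63.3%, St8sia6 at 59.6% and 69.4%, and Cyp2s1 at 86.2% and 113%. With the number as a block, edgeR called 3 of the 9 genes, all lower in LysM-cKO (background 0.214% called in either direction and 0.0927% lower). These were Kbtbd11 (log2 change −0.89, SE 0.08, edgeR adjusted p = 0.00506), Rufy4 (−0.78, SE 0.08, adjusted p = 0.00818) and St8sia6 (−0.63, SE 0.08, adjusted p = 0.0247). Msln (−1.10, SE 0.15, adjusted p = 0.0625) and Calcr (−0.64, SE 0.10, adjusted p = 0.0717) did not pass in that edgeR fit. Slc9b2, Rasgrp1 and Nyap2 had adjusted p of 0.119, 0.107 and 0.143 there.

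**Figure D4:**
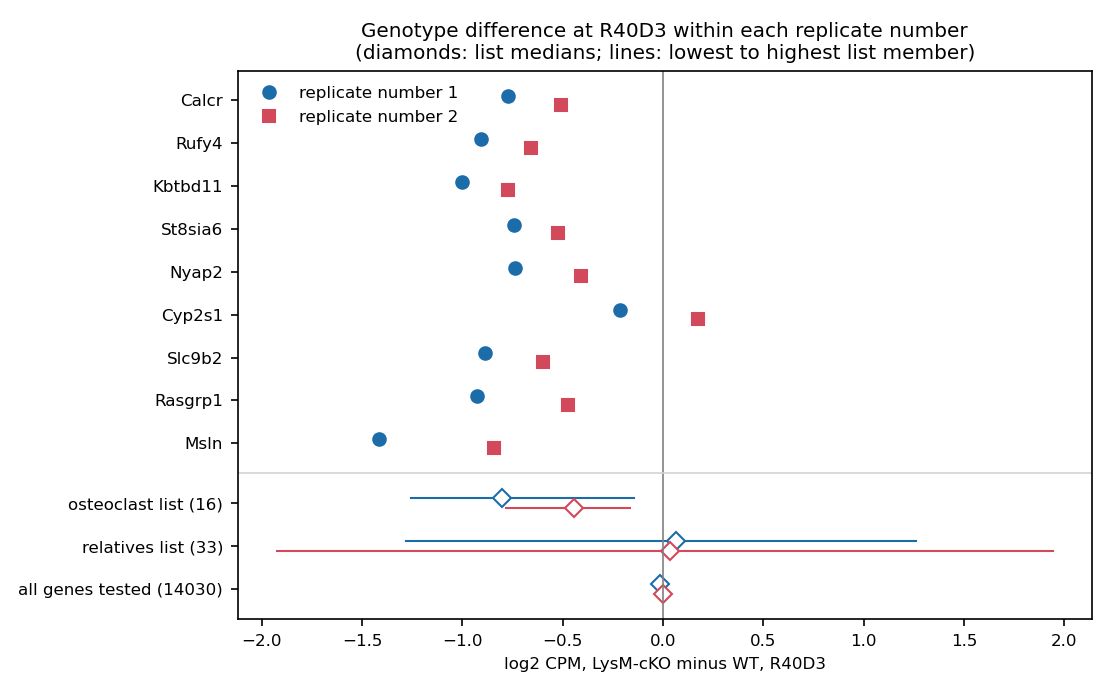
Log2 ratio of LysM-cKO to WT at R40D3 within replicate numbers 1 and 2 (circles and squares), for the 9 genes, with medians (diamonds) of the osteoclast list, the relatives list and all genes tested, and lines from the lowest to the highest member of the first pair of lists. The values of 8 genes lie below 0 in both numbers, as for 34.3% of all genes tested. Number 1 lies further below 0 than number 2 for them, as for the osteoclast medians. Cyp2s1 lies at −0.21 and 0.18.

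The 16 osteoclast genes differed in the same direction in this comparison. Their median level in LysM-cKO was 57.2% of WT in number 1 and 73.5% in number 2, where the 9 genes had medians of 54.1% and 69.4%. All 16 had a log2 change below 0 (median −0.60), edgeR called 0 of them without the block and 2 with it, and the part of this list's level in the result was not tested. The summed stromal list differed by genotype mainly in number 2 (439 CPM in LysM-cKO against 1585 in WT, and 1503 against 1674 in number 1). The part of the stromal list's level in the result was not tested. Single libraries moved these values. Leaving out LysM-cKO replicate 1 moved the log2 change of Kbtbd11 to −0.55 and that of Calcr to −0.28, and leaving out WT replicate 2 moved them to −0.62 and −0.36. With 1 library left out, Slc9b2 ranged from −1.17 to −0.35, Rasgrp1 from −1.12 to −0.30 and Nyap2 from −0.96 to −0.21. Msln depended most on single libraries, from −2.23 without LysM-cKO replicate 2 to −0.18 without WT replicate 2.

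At R0D3 the genotype comparison had little to measure. Calcr and Msln had 0 counts in all 4 libraries, and 2 of the 9 genes, Kbtbd11 and Slc9b2, exceeded 3 counts in every library. On the 4 R0D3 libraries alone, 1 of the 9 genes, Slc9b2, passed the filter on low counts, so the other 8 have counts but no usable test there. Slc9b2 had a log2 change of 0.03 (SE 0.46, edgeR adjusted p = 0.999), an error too wide to show a moderate difference.

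The interaction term asked whether the genotype difference itself differed between the R40D3 and R0D3 cultures, and it rests on the same R0D3 counts. For Slc9b2 it was −0.74 on the log2 scale (SE 0.53, edgeR adjusted p = 1.00). For the other 8 genes the R0D3 counts were too few for it to bear on the question.

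Relatives and partners of the 9 genes were read from a list of 56: calcitonin-family receptors and peptides, RUFY and KBTBD proteins, sialyltransferases, NYAP adaptors, aryl hydrocarbon receptor genes, sodium/proton exchangers, Ras exchange factors and mesothelin relatives. Of these, 33 passed the filter on low counts. In WT, 6 of the 33 changed between R0D3 and R40D3, 3 higher and 3 lower, where 16.9% of all genes were called (11.4% higher and 5.52% lower). In LysM-cKO 3 of 33 changed, 2 higher and 1 lower, where 10.1% were called (6.99% and 3.15%). With the replicate block the counts were 12 in WT, 7 higher and 5 lower (28.3% of all genes called, 16.7% higher and 11.6% lower), and 7 in LysM-cKO, 4 higher and 3 lower (21.3%; 13% higher and 8.22% lower). These shares lie near the background.

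Rasgrp3, another Ras exchange factor, fell in both genotypes while its relative Rasgrp1 was among the genes high at R40D3. In WT it went from 57.8 and 40.9 CPM to 16.9 and 8.73 CPM (log2 change −1.93, SE 0.29, edgeR adjusted p = 0.00479). In LysM-cKO it went from 66.7 ± 5.73 to 19.4 ± 0.930 CPM (SD, n = 2; log2 change −1.78, SE 0.28, edgeR adjusted p = 0.00959). Rasgrp4 had log2 changes of 0.81 in WT and 1.16 in LysM-cKO, and Rasgrp2 had −0.75 and −0.81. EdgeR called neither without the replicate block. With it, the edgeR adjusted p in WT and LysM-cKO was 0.0141 and 0.00519 for Rasgrp4 and 0.063 and 0.0445 for Rasgrp2. Among plasma membrane sodium/proton exchangers, Slc9a5 rose in WT from 1.89 ± 0.125 to 6.75 ± 0.655 CPM (log2 change 1.83, SE 0.42, edgeR adjusted p = 0.0243). Slc9a4 fell in WT from 1.63 ± 0.075 to 0.301 ± 0.166 CPM (log2 change −2.37, SE 0.54, edgeR adjusted p = 0.0235). In LysM-cKO neither passed, with log2 changes of 1.03 and −0.33. In the interaction test of the genotype difference between R40D3 and R0D3, edgeR called 0 of the 33 relatives in the fits with and without a block (background 0% in both), and 1 had an unadjusted p under 0.05 in either fit (1.77% of all genes without the block and 5.99% with it).

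Nyap1, the relative of Nyap2, rose in WT from 0.466 and 0.311 CPM (8 and 5 counts) to 2.09 and 2.02 CPM (log2 change 2.37, SE 0.56, edgeR adjusted p = 0.0272). It stayed far below Nyap2. Rufy3 fell slightly in WT, from 71.8 ± 0.390 to 55.4 ± 5.73 CPM (log2 change −0.37, SE 0.09, edgeR adjusted p = 0.0350). Its log2 change in LysM-cKO was −0.34 (SE 0.09, edgeR adjusted p = 0.0656, and 0.0197 with the replicate block). Tiparp, a target of the aryl hydrocarbon receptor, rose in LysM-cKO from 45.4 ± 5.63 to 62.9 ± 2.04 CPM (log2 change 0.47, SE 0.11, edgeR adjusted p = 0.0417), and in WT it had 0.40 (SE 0.11, edgeR adjusted p = 0.0508, and 0.00815 with the replicate block). Ahrr, another of the aryl hydrocarbon receptor genes listed, had log2 changes of 1.13 in WT and 1.07 in LysM-cKO. Its edgeR adjusted p was 0.189 and 0.264, and 0.00587 and 0.00941 with the replicate block. Ramp1, listed with the calcitonin-family genes, went from 8.44 ± 2.22 to 4.53 ± 0.021 CPM in WT. Its log2 change was −0.89 (SE 0.30, edgeR adjusted p = 0.0893, and 0.0347 with the replicate block). In LysM-cKO it was −0.92 (SE 0.33, edgeR adjusted p = 0.133, and 0.0554 with the replicate block). Slc9b1, the closest relative of Slc9b2, was under 1 CPM in all culture groups and is named after its values were seen. It went from 0.089 to 0.794 CPM in WT (log2 change 3.03, SE 0.57, edgeR adjusted p = 0.00608). Slc9b1 begins 2641 bases after the end of Slc9b2 on the same strand, and Slc9b2 was read far more often, so its few counts are uncertain. These calls depended on single libraries: without WT replicate 1 or 2 of R0D3, or WT replicate 2 of R40D3, 1 of the list was called in WT, without WT replicate 1 of R40D3 3 were, and without LysM-cKO replicate 2 of R0D3 0 were called in LysM-cKO.

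The forelimb gave the 9 genes in a tissue outside the cultures, in a table scaled separately. Kbtbd11 was the highest of them in CPM, at 8.98 and 16.9 in WT and at 13.6 and 16.1 in Prx-cKO. Cyp2s1 was at 5.79 and 4.77 CPM for WT against 3.90 and 3.68 for Prx-cKO, Slc9b2 at 4.09 and 4.14 against 3.62 and 3.84, and St8sia6 at 3.61 and 4.49 against 2.68 and 2.35. Calcr was at 1.42 and 0.892 CPM for WT against 0.835 and 1.29 for Prx-cKO. Rufy4 was at 0.236 and 0.237 CPM against 0.139 and 0.137. Nyap2 had 0 counts in both WT limbs and 0 and 4 in Prx-cKO, and Msln had 0 and 2 counts in WT and 0 in both Prx-cKO. Rasgrp1 had 18 and 60 counts in WT and 6 and 0 in Prx-cKO. So 4 of the 9 exceeded 1 CPM in all 4 limbs. Each of the 9 was lower in every limb than in every R40D3 library, an order favoured in advance by choosing genes high at R40D3.

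In the Prx-cKO comparison, 7 of the 9 genes passed the filter on low counts, all but Nyap2 and Msln, with Rufy4 and Rasgrp1 passing through their WT limbs. EdgeR called 0 of the 7 (background 0%), with 1 at an unadjusted p under 0.05, as for 10.5% of all genes, and DESeq2 called 0 where it called 1.95% of all genes. That gene was Rasgrp1, with a log2 change of −3.07 (SE 1.14, unadjusted p = 0.0349, edgeR adjusted p = 0.466) resting on the few counts above. Both Prx-cKO limbs lay below both WT limbs for 5 of the 7 (Rufy4, St8sia6, Cyp2s1, Slc9b2 and Rasgrp1), against 21% of all genes tested. For Rufy4 and Rasgrp1 the filter favoured this order in advance, so only St8sia6, Cyp2s1 and Slc9b2 bear on that comparison. St8sia6 had a log2 change of −0.71 (SE 0.33, edgeR adjusted p = 0.525) and Cyp2s1 one of −0.48 (SE 0.30, edgeR adjusted p = 0.616). Calcr had −0.03 (SE 0.49), an error too wide to show a moderate difference.

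For each gene the 2 genes most alike in log2 CPM over the 8 culture libraries were read by Pearson correlation, as a description. The libraries fall into an R0D3 and an R40D3 cluster, so any gene that is high at R40D3 scores high, and 39 to 184 genes reached r of 0.99 with each of the 9. Calcr, Kbtbd11 and St8sia6 were each other's nearest, at 0.9994 to 0.9996. Rufy4 was nearest to Siglec15, a sialic acid-binding receptor of osteoclasts (0.9993), and to Kbtbd11 (0.9991). Slc9b2 was nearest to Acp5, the tartrate-resistant acid phosphatase (0.9993), and to Klra17 (0.9991). Nyap2 was nearest to Mmp9, a matrix protease (0.9992), and to Mpp7 (0.9992). Rasgrp1 was nearest to Akap6 and to Dcstamp, which is needed for osteoclast fusion (both 0.9975). Msln was nearest to Ckmt1 (0.9997) and Rai14 (0.9991), and Cyp2s1 to Fam210a (0.9972) and Pip5k1b (0.9965).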

How the data were processed

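Per the labels' protocols, TRIzol was used for RNA and a dual-mode mRNA kit for the libraries. The values the authors deposited are unnormalised integer counts of reads for each Ensembl gene, in 1 table for the forelimbs and 1 per replicate number for the cultures. The submitters' processing notes name GRCm38, FastQC 0.11.2, Trimmomatic 0.36, HISAT2 2.1.0 and DESeq2 1.12.4, with no roles. The counting tool, annotation release and use of strand are not given in the sources used here.

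The 9 genes, the gene lists and the motifs were chosen with earlier results of these data known. Symbols were matched for 99.5% of culture identifiers. Counts were tested as deposited with edgeR 4.0.16 (R 4.3.3): filterByExpr by group, TMM scaling and the quasi-likelihood test (legacy = FALSE), two-sided, with Benjamini-Hochberg adjustment over all genes tested and a threshold of 0.05. The 8 culture libraries were fitted together (14030 genes) and the 4 forelimb libraries alone (19987 genes). All 9 genes passed the filter in the cultures, 8 of them through R40D3 libraries only. DESeq2 1.42.0 was an alternative, and the pipeline was tested on simulated counts. CPM uses TMM-scaled library sizes. The floor for a fold is 3 counts per library. Ratios of counts summed over the libraries of a group carry exact 95% binomial intervals, which leave out the spread between replicates.

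Replicates of each group differed by more than sampling noise (chi-square per degree of freedom at least 11.5). Deviations of same-numbered culture libraries from their group means correlated in all 6 pairs of groups (r 0.343 to 0.609), so the replicate number was taken to pair the cultures.

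By the naming rule, all 9 genes and Impdh2 are named. Of the relatives called in either genotype, with or without the replicate block, up to 10 are named by largest absolute log2 change in WT. Their mean had to reach 1 CPM in some culture group, and Slc9b1 is named outside this rule. Other lists are given as sums and counts. For likeness, the 2 nearest genes are named for each of the 9. Sequence is printed for up to 4 genes with the most motif matches before the start, leaving out stretches inside annotated exons.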

Additional observations from a re-analysis of the deposited data

How the results depend on the processing

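Each result was recomputed with other size factors, DESeq2, other low-count filters, the older quasi-likelihood method, a replicate block, the compared groups alone and each replicate left out. The compared groups alone were not run for the interaction or the forelimb, where all groups fitted are compared. The count of the 9 genes called at R40D3 was 0 under the 14 alternatives without the block and 3 with the replicate block. In the forelimb it was 0 under every alternative run. At R0D3 and for the interaction it was also 0, but 8 of the 9 genes have too few R0D3 counts for this to say anything about stability. In the forelimb the r of same-numbered samples was 0.261, also above 0, and the titles do not say what those samples share. The replicate block there also gave 0. Relatives called in WT numbered 6, but 12 with the replicate block, 10 with the compared groups alone and 1 to 7 with a replicate left out. In LysM-cKO they numbered 3, but 7 with the replicate block, 1 with no low-count filter, 1 with the compared groups alone and 0 to 3 with a replicate left out. With the replicate block, Rufy4, Kbtbd11 and St8sia6 passed at R40D3, and the block changed no other call of the 9 genes. The log2 fold change of Cyp2s1 (0.0078) turned to −0.0139 with the replicate block, −0.3615 without R40D3 LysM-cKO replicate 2 and −0.1161 without R40D3 WT replicate 1, and ran up to 0.3212 with another replicate left out. The other 8 genes stayed below 0 in all 120 values of their 15 alternatives, with ranges from −1.25 to −0.55 for Kbtbd11, −1.18 to −0.42 for Rufy4, −0.96 to −0.33 for St8sia6 and −2.23 to −0.18 for Msln. The cause of these changes was not tested. Counts of 0 to 8 in R0D3 limit every genotype comparison there except that of Slc9b2.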
